A study of Homo sapiens with 4 samples.

Results

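Sequencing of transcript ends next to the poly(A) tail (PAS-seq) listed 17627 poly(A) site clusters (PACs) over 4 libraries of the oesophageal squamous cell carcinoma (ESCC) lines KYSE30 and TE-1. The PACs described here are the 1263 that had a TPM (tags of the PAC scaled to the tags of the library, with no correction for length) above 3 in both TE-1 libraries and were listed in neither KYSE30 library. They made up 9.87% of the 12791 PACs above TPM 3 in both TE-1 libraries, and the other 11528 were listed in KYSE30 as well and are called shared PACs. The rule used the TPM themselves, so the presence of these PACs in TE-1 and their absence from the KYSE30 tables are a description and not a result.

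For each line there was 1 library after 24 h in 20 mM L-lactate and 1 control library (PBS). The deposited labels of both controls carried the names of other lines (KYSE32 and TE-3) in their cell line field, whereas the sample titles and the study's text gave KYSE30 and TE-1, which are the names used here. Both lines are established lines, with 1 library per line and treatment and no replicate cultures. No spread between replicates, and no test across them, could therefore be given, and differences between the lines cannot be told apart from differences between these libraries. The libraries held 7174991 to 10393799 tags, as worked out from the steps between the TPM values.

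Cleavage of a nascent transcript is directed by a hexamer a short distance upstream, most often AAUAAA, which CPSF reads, and by UGUA elements that the CFIm complex binds. A gene with several such sites can end its transcripts in the proximal or the distal part of the 3′ UTR, or inside an intron, where the coding sequence is cut short. A PAC found in one line and not in another can therefore belong to a gene that the other line does not transcribe, or be another site of a gene that both transcribe.

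On GENCODE release 44, placed by their dominant site (the position with the most tags), 736 of the 1263 PACs (58.3%, 95% Wilson interval 55.5% to 61.0%) lay in 622 genes with no PAC in either KYSE30 library. Another 354 PACs (28.0%, 25.6% to 30.6%) lay in 325 genes that KYSE30 listed through other PACs, and are called site switches below. The name is a label and does not state that site use changed, since a lower gene level alone can take a site under the listing limit. The remaining 173 (13.7%, 11.9% to 15.7%) lay in no annotated gene on their strand. These intervals, like all intervals given here, cover counting error only.

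The sequences that end at the cleavage sites of the 4 most abundant PACs in genes without a KYSE30 PAC are shown because these PACs carry the highest TE-1 levels. Each is the 30 nt of GRCh38 up to and including the dominant site, 5′ to 3′ on the transcribed strand, with the poly(A) signal in capitals. The sites are MSN at chrX:65741902-65741931 on the plus strand, CPS1 at chr2:210679077-210679106 on the plus strand, C4BPB at chr1:207099962-207099991 on the plus strand and SLC43A3 at chr11:57406955-57406984 on the minus strand, all 4 in annotated 3′ UTRs.
MSN: tcagtgccAATAAAatttaggaagacttca
CPS1: aacttttaAATAAAatactattaagaggta
C4BPB: cctatgAATAAAttttcttcttggttctga
SLC43A3: tagaaaAATAAAgcttctgtgtctaaggca
All 4 held AAUAAA, and its last base lay 16 nt before the dominant site in MSN and CPS1 and 18 nt before it in C4BPB and SLC43A3.

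For site switches the comparison within the gene matters, so the TE-1 PAC is shown with a PAC of the same gene that KYSE30 listed, in the same form. The TE-1 site is named first in each pair.
DYM, TE-1: aataAATAAAaaattgtatattttggagta
DYM, KYSE30: acaatAATAAAtgtaaaaacctgctattca
ATP1B1, TE-1: atattcaacgggAATAAAactggcatggta
ATP1B1, KYSE30: aggttaaaacaacggacAATAAAagaatga
SMARCE1, TE-1: taaaggtccaaatgtAATAAAaaaaaaaat
SMARCE1, KYSE30: tttttAATGAAaaaatgttttttggtttta
BORA, TE-1: ttcaaaagggAATAAAgacctgtgttatca
BORA, KYSE30: attttttatcAATAAAtatttttatactta
TMEM52B, TE-1: actttgaaatAATAAAagtacattgtttta
TMEM52B, KYSE30: ataaatacttgttgattgcggtaaacagca
TMEM161B-DT, TE-1: attaAATAAAcatggaattttacacattca
TMEM161B-DT, KYSE30: actgtaagagAATAAAtttctattgtttta
The TE-1 sites lie at chr18:49153217-49153246 on the minus strand (DYM), chr1:169131989-169132018 on the plus strand (ATP1B1), chr17:40627718-40627747 on the minus strand (SMARCE1), chr13:72756166-72756195 on the plus strand (BORA), chr12:10175481-10175510 on the plus strand (TMEM52B) and chr5:88436640-88436669 on the plus strand (TMEM161B-DT). All 6 TE-1 sites held AAUAAA within these 30 nt, but of the 12 site switches chosen by the same rule 7 held it in the 50 nt before the site, and USP31, CENPI, ZXDC, DNAJC11 and SLC66A3 had other hexamers. Of the KYSE30 sites, that of SMARCE1 held the variant AAUGAA, and that of TMEM52B held no listed hexamer in the 30 nt shown and an AAUAAA that ended 25 nt before its dominant site. The SMARCE1 site of TE-1 was followed in the genome by 7 A among the next 10 bases, a sequence on which oligo(dT) can also prime, and the part of such priming was not tested.

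As a whole the 1263 PACs were low. The smaller of their TE-1 TPM had a median of 5.58, against 18.7 in shared PACs, and 334 were above TPM 10 and 27 above TPM 100 in both TE-1 libraries. Their share of all TE-1 PACs fell with level, from 27.7% (560 of 2022) at TPM 3 to 5 to 13.9% at 5 to 10, 7.20% at 10 to 20 and 1.72% (27 of 1569) above 100. The mirror set, PACs above TPM 3 in both KYSE30 libraries and in neither TE-1 library, held 1405 PACs and followed the same order, from 31.1% to 1.57%. A PAC not listed is not a PAC without tags. Before deposit, sites under TPM 1 and single-site PACs under TPM 3 were removed, and of PACs at TPM 3 to 5 in 1 library of a line, 81.4% to 83.8% were listed in the other library of the same line, against 87.2% to 90.9% of PACs at TPM 1 to 3. Above TPM 10 at most 2 PACs of a library were missing from the other library of its line.

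**Figure D1:**
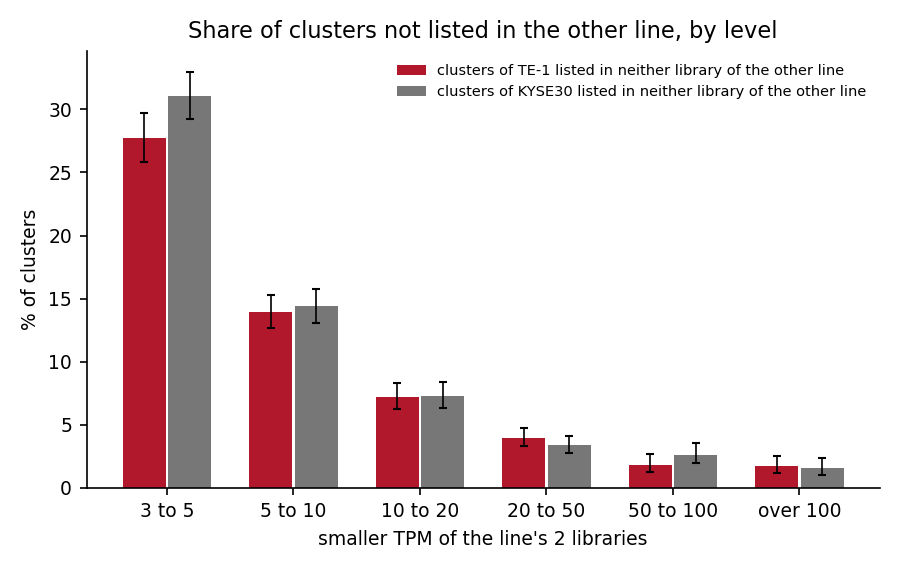
Share of PACs listed in neither library of the other line, in percent (y axis), by the smaller TPM of the PAC in the 2 libraries of its own line (x axis), with 95% Wilson intervals as error bars. In TE-1 (red) the share falls from 27.7% at TPM 3 to 5 to 1.72% above TPM 100, and KYSE30 (grey) shows 31.1% and 1.57%.

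At the edge of the rule, the lowest PACs taken in were an intronic PAC of CPS1 at TPM 3.07 with L-lactate and 3.17 in the control, one of TBC1D9B at 3.07 and 4.62 and one of AGPS at 3.07 and 3.37. Just below the limit were PACs of DMBX1 and CPM, both at TPM 3.42 and 2.98, and of CORO6 at 4.84 and 2.98, among 203 PACs of this kind. On the KYSE30 side 339 PACs above TPM 3 in both TE-1 libraries were kept out because 1 of the 2 KYSE30 libraries listed them. A PAC of SARS1, for example, was at 7.08 and 7.02 in TE-1 and at 1.08 in the KYSE30 control alone.

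Genes with no PAC in KYSE30 were led by MSN, CPS1 and C4BPB. MSN encodes moesin, which links cortical actin to the plasma membrane, and its single PAC had TPM 928 with L-lactate and 948 in the control. CPS1, the mitochondrial enzyme that starts the urea cycle, had 4 PACs that summed to TPM 813 and 807. C4BPB, a chain of the complement inhibitor C4b-binding protein, had TPM 563 and 483. None of these genes had a PAC in either KYSE30 library, and the TE-1 libraries gave nearly the same level for MSN and CPS1.

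Several others of the 20 genes with the highest single PAC encode enzymes and transporters. ASS1, which makes argininosuccinate and so follows CPS1 in the urea cycle, had TPM 155 with L-lactate and 186 in the control, a ratio of 0.831 (exact interval from its tags 0.775 to 0.892). CDA, cytidine deaminase, had TPM 137 and 104, a ratio of 1.31 (1.20 to 1.42). MAOB, an outer mitochondrial membrane monoamine oxidase, had TPM 122 and 107. The purine transporter gene SLC43A3 had TPM 356 and 314, and the zinc importer gene SLC39A4 had TPM 125 and 142.

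PXDN, a peroxidase that cross-links basement membrane collagen, had TPM 230 and 237 at its main PAC and 15.9 and 23 at a second one upstream in the 3′ UTR. FBN2, a microfibril protein, had TPM 213 and 210 at its main PAC, and CCN5, a matricellular protein, had TPM 185 and 213. COL5A1, a fibrillar collagen chain, had 3 PACs within 1.64 kb of its 3′ UTR that summed to TPM 224 and 234. The most distal COL5A1 PAC was at 161 and 145, and the other two were at 52.9 and 73.9 and at 10.9 and 15.3, lower than the distal PAC in both libraries.

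The 20 were ranked by the highest PAC within the annotated gene, so that CASC19 and MUC13 are not among them although their PACs sum to more than those of most. The rest of the 20 were KRT17, a keratin of basal and wounded epithelium (TPM 187 with L-lactate and 245 in the control), the cancer-testis antigen gene MAGEA1 (151 and 157), the long noncoding RNA gene LINC03061 (133 and 149 at its main PAC), the endocytic adaptor gene DAB2 (165 and 123 at its main PAC), the immunoproteasome subunit gene PSMB8 (157 and 122), the ubiquitin ligase gene RNF182 (138 and 121), the G protein subunit gene GNB4 (107 and 105 at its main PAC) and the protease gene PRSS21 (104 and 127 at its main PAC). The highest PAC of each of the 20 genes lay in a 3′ UTR, except that of LINC03061 in a noncoding exon. The nearest KYSE30 PAC on the same strand was 4480 nt away for PSMB8, 11201 nt for SLC39A4 and more than that for each of the others, up to 2790133 nt for MSN.

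By gene lists, with PACs up to 10 nt past an annotated end counted for the gene, 638 of 9507 genes above TPM 3 in both TE-1 libraries had no KYSE30 PAC (6.71%). Among protein-coding genes it was 511 of 9009 (5.67%, interval 5.21% to 6.17%) and among lncRNA genes 114 of 459 (24.8%, 21.1% to 29.0%). The lncRNA share lay above the coding share with no overlap of the intervals, but the levels of the groups were not matched, and the share without a KYSE30 PAC was higher at lower levels. In the mirror comparison, 781 of 9749 genes above TPM 3 in both KYSE30 libraries (8.01%) had no TE-1 PAC. It was 156 of 529 among lncRNA genes of KYSE30 (29.5%) and 613 of 9181 among coding genes (6.68%).

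All 5 cancer-testis genes above TPM 3 in TE-1, which are normally expressed in germ cells, were without a KYSE30 PAC, against the 6.71% of all genes. They were MAGEA1, PRAME (TPM 56.9 with L-lactate and 51.1 in the control), PASD1 (34.0 and 41.8), CT83 (17.8 and 22.3) and ACTL8 (11.6 and 15.8). KYSE30 had 6 genes of this list above TPM 3, and none of the 6 had a PAC in TE-1. The list was thus split between the lines with no gene in common. This list and those below were chosen with earlier results of these data known, so their shares are a description and not a test.

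Of 29 homeobox genes above TPM 3 in TE-1, which set positional identity in the embryo, 11 had no KYSE30 PAC (37.9%, 22.7% to 56.0%), against 6.71% of all genes. In the mirror comparison 3 of 21 homeobox genes of KYSE30 (14.3%) had no TE-1 PAC. The highest of the 11 genes of TE-1 was HOXA11 with TPM 47.6 and 43.9, followed by HOXB8 with 14.1 and 11, SIX2 with 7.56 and 5.68, IRX5 with 7.44 and 7.50, HOXC8 with 7.20 and 4.81 and HOXA7 with 4.84 and 6.06. All 6 were under TPM 50, and the HOXA7 and HOXC8 sites were followed by A-rich sequence.

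Of the 7 genes of glandular epithelium above TPM 3 in TE-1, 4 had no KYSE30 PAC. MUC13, a transmembrane mucin, was the highest, with TPM 352 and 318 at a PAC 1 nt past its annotated end and 20.4 and 20.9 at a PAC inside its 3′ UTR. The higher PAC of the transcription factor gene HNF4A was at TPM 6.26 and 4.91, and the PAC of the tetraspanin gene TSPAN8 at 14.1 and 6.93. KYSE30 had 7 genes of the same list above TPM 3, of which 4 had no TE-1 PAC (57.1%), among them AGR2 with TPM 1088 and 1093 in KYSE30.

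Of 17 mesenchymal and matrix genes above TPM 3 in TE-1, 4 had no KYSE30 PAC (23.5%, 9.56% to 47.3%), against 6.71% of all genes. Beside COL5A1 they included ZEB1, a repressor of epithelial genes, with TPM 25 and 19.6, and COL1A1 with 4.84 and 5.39. VIM, the intermediate filament of mesenchymal cells, was no member, since KYSE30 listed its PAC too. It had TPM 982 and 991 in TE-1 and 6.69 and 5.66 in KYSE30. Other genes of the list went the other way. In the mirror comparison 5 of 18 (27.8%) had no TE-1 PAC, among them TGFBI and MMP14, and TNC, a matrix glycoprotein, had TPM 77.8 and 59.3 in KYSE30 and 2.72 and 2.79 in TE-1.

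Among the other lists, cytokines and growth factors had 3 of 17 genes without a KYSE30 PAC (17.6%, 6.19% to 41.0%), and in KYSE30 10 of 22 (45.5%) without a TE-1 PAC. Their highest PACs were those of IL32 (TPM 54.9 with L-lactate and 53.9 in the control), BMP2 (18.5 and 20) and WNT5A (14.5 and 11.8). Interferon and antigen presentation genes had 2 of 30, PSMB8 and the tetherin gene BST2 (78.5 and 85.9). Drug and aldehyde metabolism genes had 2 of 26, the glutathione transferase gene GSTM4 (15.7 and 14.8) and the aldo-keto reductase gene AKR1C3 (15.1 and 12.1), and cadherins had 1 of 2, CDH13 (49.6 and 36.9). Of 228 ZNF genes, many of which encode KRAB repressors, 18 had none (7.89%, 5.05% to 12.1%), led by ZNF300 with 27.3 and 23.9. The interferon (6.67%), drug metabolism (7.69%) and ZNF shares lay near the 6.71% of all genes. Several of the genes named here (MAGEA1, KRT17, GSTM4, AKR1C3, ZNF300) belong to families of similar sequence, and how reads that matched several members were counted is not given in the sources used here.

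The markers of the labelled cell type split between the lines. KRT17 was the only 1 of 15 epithelial and squamous genes above TPM 3 in TE-1 without a KYSE30 PAC (6.67%, near the 6.71% of all genes). The list summed to TPM 2880 and 2894 in TE-1 and to 9517 and 9407 in KYSE30. TE-1 listed 17 and 15 of the 35 genes, including KRT7, KRT8, KRT18, DSP and SFN. The defining squamous markers KRT5, KRT14, TP63, SOX2, DSG3 and KRT13 were listed in neither TE-1 library. KYSE30 listed 27 of the 35, with TP63 at TPM 32.6 and 24.2 and KRT13 at 684 and 728, and did not list KRT5, KRT14 or DSG3. Of 19 markers of blood, immune and endothelial cells, TE-1 listed CD68 alone, at TPM 15.2 and 11.5. The part of these differences in the PACs described here was not tested.

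Most genes without a KYSE30 PAC held 1 of the PACs. In 80 of the 622 (12.9%, 10.5% to 15.7%) there were at least 2, against 2156 of the 8583 other genes with a PAC above TPM 3 in both TE-1 libraries (25.1%), and in 17 at least 3. Only PACs above TPM 3 were counted, and the levels of these groups of genes were not matched. CASC19, a long noncoding RNA gene on chromosome 8, held the most, 14 PACs that summed to TPM 249 and 248, of which 7 lay in introns and 7 in noncoding exons. PDE10A, a cyclic nucleotide phosphodiesterase, held 5 PACs over 37.5 kb that summed to TPM 68.6 and 90.2, with the highest at 44.8 and 65.0. PDE3A, which degrades cAMP, held 3 PACs in 5.06 kb of its 3′ UTR at TPM 16.3 and 15.2, 82.1 and 83.7, and 3.66 and 3.46, so that 1 PAC carried most of the gene in both libraries. These genes were picked after the values were seen.

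On the genome the PACs also came in stretches with no KYSE30 PAC between them on either strand. There were 6 stretches of at least 6 PACs. That of CASC19 held 15 PACs over 121 kb. Another on chromosome 7, over 60.2 kb around LINC00689 and VIPR2, held 9. One of 8 PACs over 89.8 kb of chromosome 11 lay in the beta-globin region, where the embryonic globin gene HBE1 had 4 PACs at TPM 23.7 and 33.1, 4.25 and 3.85, 6.61 and 4.33, and 49.4 and 72.0, the first in its 3′ UTR and the others in introns of long HBE1 transcripts. The adult globin genes HBA1 and HBB were listed in no library.

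Across chromosomes the share of TE-1 PACs without a KYSE30 PAC was highest on X, with 85 of 416 (20.4%, 16.8% to 24.6%), 21, with 23 of 133 (17.3%, 11.8% to 24.6%), and 5, with 104 of 638 (16.3%, 13.6% to 19.4%). It was lowest on 18, with 9 of 173 (5.20%, 2.76% to 9.59%), against 9.87% over all. The intervals of X, 21 and 5 lay above that value. Those of 18, 14 (6.09%, 4.13% to 8.90%) and 1 (7.53%, 6.25% to 9.04%) lay below it. MSN, MAGEA1, MAOB, PASD1 and CT83 are among the genes on X. The copy number of these chromosomes in the lines was not analysed here.

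Site switches were lower than the PACs of genes without KYSE30 PACs, with a median smaller TPM of 4.14 against 6.85, and made up a median of 13.6% of the TPM of their gene in TE-1. They reached at least 10% of the gene in both TE-1 libraries in 209 of 354 (59.0%), at least 25% in 100 and at least 50% in 31 (8.76%). Relative to the KYSE30 PACs of the gene, 204 (57.6%, 52.4% to 62.7%) lay upstream of all of them, 111 (31.4%) downstream of all and 39 (11%) between. The 77 intronic ones lay upstream in 62 (80.5%, 70.3% to 87.8%), whereas the 248 in 3′ UTRs lay upstream in 122 (49.2%, 43.0% to 55.4%) and downstream in 96 (38.7%). The positions of shared PACs were not counted in this way, so no share over all PACs stands beside these. Introns also lie before the last 3′ UTR of a gene, which by itself places intronic sites upstream of PACs there. The median distance to the nearest KYSE30 PAC of the gene was 1744 nt in 3′ UTRs and 15199 nt in introns, and no PAC lay within 500 nt of one, the distance within which abundant PACs had been joined.

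A lower gene level alone can take a site under the listing limit. Without the PACs described here, whose absence from KYSE30 the rule fixes, the other sites of the gene summed to less in KYSE30 than in TE-1 in both treatments for 255 of the 354 (72.0%, 67.1% to 76.5%), against 4013 of 8562 genes with a shared PAC (46.9%, 45.8% to 47.9%). Leaving these PACs out does not undo the rule, which takes in a gene more readily when it is lower in KYSE30. The 354 are also PACs, in 325 genes, set against genes, so the contrast is a description. The level that each site would have had in KYSE30, had it kept its TE-1 ratio to the other sites of its gene, was computed for each treatment. It was above TPM 3 in both KYSE30 libraries for 121 of the 354 (34.2%, 29.4% to 39.3%), for 34 of the 77 intronic sites (44.2%, 33.6% to 55.3%) and for 73 of the 248 sites in 3′ UTRs (29.4%, 24.1% to 35.4%). Over all 4327 PACs with an expected level above TPM 3 in both, these 121 were 2.80%. With a limit of TPM 5 the number was 42. A level of TPM 3 to 5 does not ensure that a PAC is listed. Of PACs at that level in 1 KYSE30 library, 82.3% to 82.9% were listed in the other. For 10 site switches no ratio could be formed, because TE-1 listed no other site of the gene in at least 1 library.

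Among genes with a summed TPM of at least 20 in both KYSE30 libraries, the largest share of a gene fell to a DYM site. DYM encodes dymeclin, a protein of the Golgi, and its intronic PAC had TPM 21.1 and 18.2 under the 2 treatments, which was 61.7% and 53.5% of the gene in TE-1. In KYSE30 the gene summed to TPM 21.3 and 24.5, through 3′ UTR PACs at least 109414 nt downstream, and the intronic site would have been expected at 34.4 and 28.2. TE-1 also listed the main 3′ UTR PAC, at 10.7 and 14.

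ATP1B1, the beta subunit of the sodium pump, carried the most abundant site switch. Its proximal 3′ UTR PAC had TPM 175 and 159, 25.2% and 26.2% of the gene, 696 nt upstream of the PAC that both lines listed. The distal PAC was at TPM 521 and 448 in TE-1 and at 54.9 and 54.7 in KYSE30. The proximal site would have been expected at 18.5 and 19.4 in KYSE30 and was in neither library. In SMARCE1, a subunit of the SWI/SNF chromatin remodeller, a distal PAC 1005 nt past the shared one had TPM 46.6 and 39.7, 28.9% and 24.4% of the gene, and an expected 33.4 and 28.5 in KYSE30.

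BORA, an activator of the mitotic kinase Aurora A, had a distal PAC at TPM 13.7 with L-lactate and 8.47 in the control, 746 nt past the PAC that KYSE30 listed at 27.2 and 42.3. Its share of the gene was 49.2% and 28.1%, and its L-lactate to control ratio was 1.62 (exact interval 1.22 to 2.16). CENPI, a centromere protein, had a PAC within its coding sequence at TPM 9.21 and 6.64, 61267 nt upstream of its first KYSE30 PAC. The noncoding-exon PAC of TMEM52B, at 3.78 and 6.64, and that of TMEM161B-DT, at 4.01 and 3.17, lay 16289 nt upstream and 149020 nt downstream of the KYSE30 PAC of their gene. For both genes KYSE30 had the higher summed TPM, 23.3 and 20.2 against 10.7 and 13.9 for TMEM52B and 27.6 and 23 against 13.1 and 11.1 for TMEM161B-DT.

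The 5 others chosen by the same rule were at TPM 3.66 to 6.93. Their expected KYSE30 levels ran from TPM 3.99 (ZXDC, L-lactate) to 9.90 (DNAJC11, control). Those of ZXDC, DNAJC11 and SLC66A3 with L-lactate lay at TPM 3 to 5, where a PAC is not always listed. The intronic sites of ZXDC, a transcriptional regulator, SYNRG, a clathrin adaptor partner, and SLC66A3 made up 15.9% to 19% of their genes, and each lay at least 5433 nt upstream of a KYSE30 PAC. The 3′ UTR site of DNAJC11, a mitochondrial J protein, lay 950 nt upstream of a PAC listed in all 4 libraries, with a share of 16.1% and 27.1%. The site of the deubiquitinase gene USP31 lay between KYSE30 PACs with a share of 24.7% and 22.6%.

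**Figure D2:**
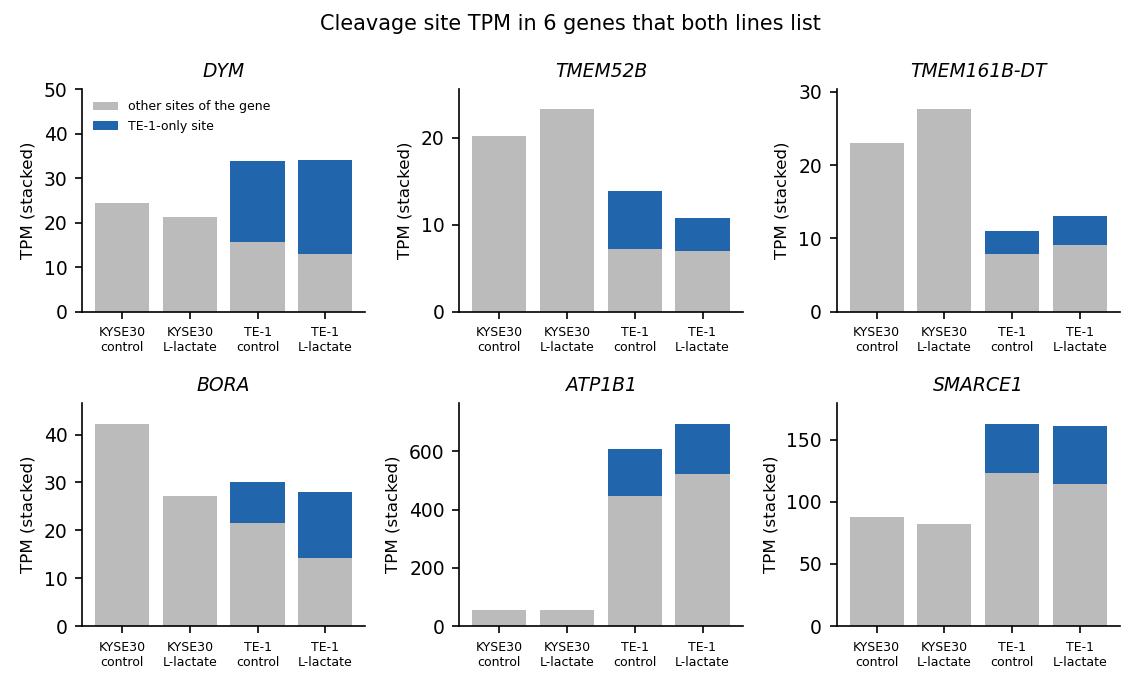
Summed TPM of a gene in each of the 4 libraries (stacked bars), split into the site listed in TE-1 alone (blue) and all other sites of the gene (grey), for 6 site switches. In DYM the blue site holds 61.7% of the TE-1 TPM with L-lactate and 53.5% without, in ATP1B1 25.2% and 26.2%, and none of the 6 has a blue part in KYSE30.

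In all, 13 site switches had an expected level above TPM 10 in both KYSE30 libraries, DYM, ATP1B1, SMARCE1, BORA and TMEM52B among them. The following were named after their values were seen. The intronic PAC of MATR3, a nuclear matrix protein, had TPM 32.9 with L-lactate and 37.5 in the control, against a summed gene TPM of 303 and 305 in KYSE30 and 359 and 344 in TE-1, which gave an expected 30.6 and 37.3. A 3′ UTR PAC of PARD3, a polarity protein, had TPM 47.2 and 40.7 and made up 93% and 84.8% of the gene, which KYSE30 listed at 4.6 and 3.77 through a PAC 201147 nt away. A PAC of ZNF264 had TPM 3.66 and 5.10, or 75.6% and 75.7% of the gene, which was at 18.3 and 17.2 in KYSE30. The expected levels, 61.3 and 21.0 for PARD3 and 56.6 and 53.7 for ZNF264, exceeded the whole gene in KYSE30. They rest on the low TPM of the other TE-1 sites of these genes and are unstable. For ZNF264 all TE-1 sites summed to only 4.84 and 6.74. Among the 10 without a ratio, ERI2, a 3′ exonuclease gene, had its TE-1 PAC at TPM 20.5 and 21.1, whereas KYSE30 listed another PAC 1337 nt away at a gene TPM of 7.11 and 12.1.

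The 173 PACs in no gene included 32 that lay 1 to 10 nt past an annotated gene end and 89 that lay within 5 kb past one. Of the 32, 29 followed genes with no KYSE30 PAC. Beside that of MUC13 they included PACs 1 nt past the end of OLFM1, an olfactomedin gene, at chr9:135121181 (TPM 153 with L-lactate and 158 in the control) and of the kinesin gene KIF26A at chr14:104180895 (96.8 and 91.8). The highest PAC of the class, on chromosome 8 beside CASC19, had TPM 559 and 326, a ratio of 1.71 (exact interval 1.64 to 1.79). A PAC at chr6:65836673, at 96.4 with L-lactate, lay 2041643 nt past the nearest annotated gene end upstream on its strand.

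PACs listed in TE-1 alone lay less often in a 3′ UTR than shared PACs, in 771 of 1263 (61.0%) against 87.4% (86.8% to 88.0%), and more often in introns (11.2%, 9.55% to 13%, against 2.86%), noncoding exons (13.5% against 4.35%) and outside genes (13.7% against 5.04%). The same order held within bands of level. At TPM 3 to 5 the 3′ UTR share was 54.6% (50.5% to 58.7%) against 72.3% (69.9% to 74.5%) in shared PACs, and above TPM 10 it was 72.5% (67.4% to 77.0%) against 92.0% (91.3% to 92.5%). The interquantile width, the stretch that holds the bulk of a PAC's tags, was taken from the TE-1 control library alone. It was 1 nt in 778 PACs (61.6%) against 32.2% of shared PACs. A PAC of this width can still hold tags at other positions. By level the share with this width was 78.0% against 38.4% at TPM 3 to 5 and 60.4% against 36.2% at TPM 5 to 10. Above TPM 10 it was 35.3% against 29.9%.

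**Figure D3:**
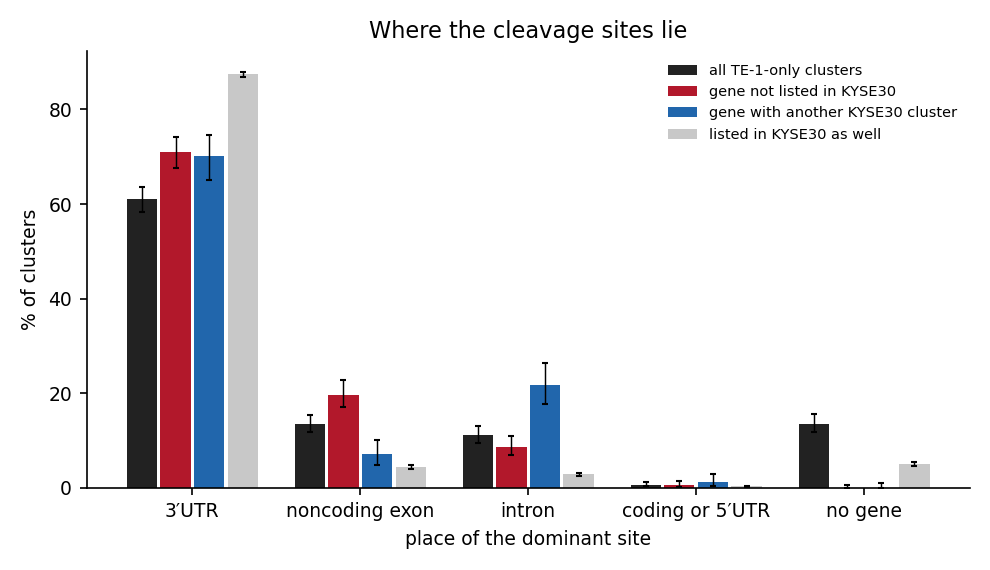
Share of PACs by the place of their dominant site, in percent, with 95% Wilson intervals, for all 1263 PACs listed in TE-1 alone (black), those in genes not listed in KYSE30 (red), site switches (blue) and shared PACs (grey). The 3′ UTR bars stand near 61%, 71.1%, 70.1% and 87.4%, and site switches have the highest intronic bar at 21.8%. The red and blue groups hold no PAC outside genes by construction.

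The poly(A) signal was sought on the transcribed strand in the 50 nt before the dominant site. AAUAAA was found in 784 of the 1262 PACs with a full sequence window (62.1%, 59.4% to 64.8%), against 68.2% (67.3% to 69.0%) of shared PACs and 67.6% of all PACs above TPM 3 in both TE-1 libraries. AUUAAA without AAUAAA was found in 16.6% of both groups, and no hexamer of 13 searched in 5.31% (4.20% to 6.69%) against 3.50% (3.18% to 3.86%). The difference was not the same at all levels. The intervals overlapped at TPM 3 to 5, with 59.1% (55.0% to 63.1%) against 62.0% (59.5% to 64.5%), did not at TPM 5 to 10, with 58.4% (53.3% to 63.3%) against 66.1% (64.1% to 68.0%), and overlapped above TPM 10, with 71.3% (66.2% to 75.8%) against 70.0% (68.9% to 71.0%). Site switches had the lowest share, 54.2% (49.0% to 59.4%), and PACs of genes without a KYSE30 PAC had 65.9% (62.4% to 69.2%). The last base of AAUAAA lay a median of 16 nt before the site in both groups. UGUA within the 100 nt before the site was found in 52.3% (49.5% to 55.0%), against 58.1% (57.2% to 59.0%) of shared PACs and 57.5% of all. By level it was 53.2% against 54.0% at TPM 3 to 5, 49.7% (44.6% to 54.8%) against 57.3% (55.2% to 59.3%) at 5 to 10 and 53.6% (48.2% to 58.9%) against 59.1% (58.0% to 60.2%) above 10, so that the intervals were apart in the middle band alone. A-rich sequence just after the site (6 A in a row or 7 of 10 bases) was found in 1.74% (1.15% to 2.63%) and in 1.34% of shared PACs.

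Because the rule asked for a TPM above 3 in both TE-1 libraries, PACs present with 1 treatment alone are not in the following counts. The median log2 ratio of L-lactate to control TPM was 0.03 with quartiles of -0.21 and 0.26, against a median of 0.04 over all PACs above TPM 3 in both TE-1 libraries. It was at least 1.5-fold higher in 78 PACs (6.18%), where the share over all these PACs was 4.06%, and at least 1.5-fold lower in 73 (5.78%), where it was 2.72%. At TPM 3 to 5, 56 of 560 were higher, a smaller share than the 176 of 1462 shared PACs. There 43 were lower (7.68%), against 115 shared PACs (7.87%). At TPM 5 to 10, 19 of 369 were higher (5.15%) and 22 lower (5.96%), against 7.37% and 4.17% of shared PACs. Above TPM 10, 3 of 334 were higher (0.898%) and 8 lower (2.40%), against 1.25% and 0.835% of shared PACs. Within each band the share that was higher thus lay below that of shared PACs, unlike the share over all levels. The share that was lower lay above that of shared PACs at TPM 5 to 10 and above TPM 10 only.

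Among PACs with TPM of at least 10 in both TE-1 libraries, the largest L-lactate to control ratios were those of SCARA5, a scavenger receptor gene, with TPM 24.8 and 14.4 and a ratio of 1.72 (exact interval 1.39 to 2.13), the chromosome 8 PAC in no gene described above, BMERB1 with 20.2 and 11.8 (1.71, 1.35 to 2.17), C11orf86 with 15.7 and 10.5 and EDN1, the vasoconstrictor peptide gene, with 32.5 and 21.7 (1.49, 1.25 to 1.79). The smallest were those of a PAC in no gene on chromosome 8 with TPM 23.6 and 49.8 (0.474, 0.400 to 0.559), LUZP2 with 10.6 and 20.7 (0.514, 0.397 to 0.660), a PAC in no gene at chr17:81464177 with 10.6 and 18.5, SLF1, a DNA repair gene, with 13.6 and 23.3 (0.583, 0.463 to 0.731) and the antisense RNA gene ELFN1-AS1 with 16.3 and 27.5 (0.592, 0.480 to 0.728). The SLF1 PAC lay in an intron and held 16.7% of its gene with L-lactate and 21.6% in the control. The highest PAC of SLF1 was at 38.8 and 45.0 (0.863, 0.747 to 0.996). The intervals of these ratios compare the tags of 2 libraries and not the treatments, since there was 1 library of each.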

How the data were processed

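PAS-seq of 4 libraries was used as deposited. Following the study's methods, trimmed reads (FASTX-Toolkit) were aligned to GRCh38 with HISAT2, and poly(A) sites were called and clustered into PACs with CAGEr, joining sites within 24 nt. The deposited TPM are RPM values made by the authors, the tags of a PAC scaled to the tags of its library with no correction for length. Deposited start positions count from 0 and are given from 1 here. The PACs and gene lists were chosen with earlier results of these data known.

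From these files, the 1263 PACs were selected by TPM, placed on GENCODE 44 by the control library's dominant site (3′ UTRs before coding exons, these before 5′ UTRs, then noncoding exons and introns, without read-through transcripts) and searched for hexamers in GRCh38. Whole tags were recovered from the TPM steps (every value within 0.0052 of a whole tag) and gave the exact (Clopper-Pearson) intervals of ratios. Shares carry Wilson intervals at 95%. The genes named were the 20 highest without a KYSE30 PAC, 12 site switches with the largest share of their gene at a gene TPM of at least 20 in KYSE30, 5 PACs in no gene, up to 6 genes a list, 5 highest and 5 lowest L-lactate ratios and 3 PACs on each side of the limit. Some genes that this rule selects are not reported here. The scripts were tested on simulated data. Alternatives changed the minimum TPM, libraries, gene assignment, signal window, fold and scaling. Tools were matplotlib 3.10.9, SciPy 1.17.1, pandas 2.3.3 and NumPy 2.4.6 under Python 3.11.15.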

Additional observations from a re-analysis of the deposited data

How the results depend on the processing

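No paired analysis was possible because each line and treatment had 1 library and the labels gave no replicate number. A minimum TPM of 5 left 703 PACs, with 68.3% in genes without a KYSE30 PAC, 18.3% site switches and 66.1% in a 3′ UTR. A minimum of 10 left 334, with 79.9%, 8.68% and 72.5%, and AAUAAA in 71.3%. With the control libraries alone the shares of genes without a KYSE30 PAC and of site switches were 53.4% and 33.2%, and with the L-lactate libraries alone 54.3% and 31.5%. They were 62.0% and 31.4% when PACs up to 5 kb past a gene end counted for the gene, and 63.5% and 22.8% when a gene needed a summed TPM of 3 in both KYSE30 libraries. Counting AUUAAA as well raised the signal share to 78.8%. Centring on all TE-1 PACs moved the median log2 L-lactate ratio from 0.025 to -0.012. At a minimum of 10, 3 PACs were at least 1.5-fold higher and 8 lower, and at a fold of 2, 10 and 9. With a limit of TPM 5, 42 site switches in place of 121 had an expected KYSE30 level above it. Fewer PACs entered each stricter setting by construction, and other causes were not tested. Leaving out PACs within 500 nt of a KYSE30 PAC removed none and tested nothing. The other 27 values stayed within 1.5 times the count or within the interval of the share. Counting PACs up to 10 nt past a gene end (59.9% and 28.9%, with 123 site switches above the limit), counting any KYSE30 PAC inside the gene body and leaving out A-rich sites were chosen after seeing the data. Of PACs at TPM 3 to 5, 81.4% to 83.8% were listed again in the second library of the same line, and the cause was not tested.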

Other observations

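NUP43, a component of the nuclear pore that dividing cells use in general, was listed in neither KYSE30 library, whereas TE-1 had TPM 68.2 with L-lactate and 66.6 without. It was singled out after its values were seen. SDHA, a subunit of mitochondrial complex II, was listed in none of the 4 libraries, whereas ACTB, GAPDH, EEF1A1 and HPRT1 were listed in all 4, so that a gene with no PAC in these tables is not shown to be silent.

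In 8 of the 622 genes counted above as without a KYSE30 PAC, KYSE30 listed a PAC 1 to 10 nt past the annotated end. These genes held 8 of the 736 PACs and were BAHCC1, CAMK2G, GSDME, MRPL3, PPP1R3F, SNHG4, SPIRE2 and SYNPO.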
